A study of Mus musculus with 2 samples.

Results

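Resident Kupffer cell genes were examined in the livers of high-fat diet (HFD)-fed mice given a viral vector for *Wee1-AS* or for GFP. The set holds 10 genes chosen by symbol: *Clec4f*, *Cd5l*, *Vsig4*, *Timd4*, *Marco*, *Csf1r*, *Adgre1*, *C1qa*, *C1qb* and *C1qc*. All 10 were found among the 45777 gene symbols of the deposited table, and all 10 were among the 15857 genes that reached 10 counts in either library. The mice of both groups (C57BL/6 in the labels, C57BL/6 N in the study's text) were fed HFD for 18 weeks from 7 weeks of age and were injected retro-orbitally after 13 of these weeks. Their sex, and how many mice each library stands for, are not given in the sources used here. The controls (AAV-GFP) received the vector with GFP, and the other group (AAV-*Wee1-AS*) the vector with *Wee1-AS*, a noncoding transcript antisense to *Wee1*. This vector was an AAV9 with a CMV promoter, so its expression was not limited to hepatocytes. Poly-A RNA of whole liver was sequenced, and each group has 1 library here. The depositors mention 4 samples of liver in describing the design, and how these relate to the 2 libraries is not given. No difference given here has a replicate check, and no p-value is given. *Wee1-AS* itself was not analysed here, so the group labels were not checked against it.

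Kupffer cells are the macrophages that live in the sinusoids of the liver. They settle there before birth, renew themselves locally and depend on signaling through the receptor CSF1R. They clear bacteria, dying cells and aged red blood cells from portal blood through scavenger, lectin and complement receptors, and they secrete C1q, the protein that starts the classical complement pathway. In steatotic liver, resident Kupffer cells can be lost and partly replaced by macrophages that derive from monocytes. *Clec4f* and *Timd4* mark Kupffer cells more strictly than *Csf1r*, *Adgre1* and the C1q genes, which other macrophages also use.

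The 10 genes did not move together between the 2 libraries. *Marco*, *Vsig4* and *Timd4*, which encode receptors for bacteria, complement C3 fragments and dying cells, were higher in the AAV-*Wee1-AS* library by 3.04-fold, 2.86-fold and 2.64-fold. *C1qa*, *C1qb*, *C1qc* and *Cd5l*, which encode secreted proteins, were lower, at 0.532-fold, 0.496-fold, 0.490-fold and 0.592-fold. *Clec4f*, *Csf1r* and *Adgre1* lay between them, at 0.901-fold, 0.758-fold and 1.07-fold. Across all genes the ratio between the libraries also followed the GC content of transcripts. With the trends in GC content and transcript length removed, the log2 ratios of the C1q genes were between -0.27 and -0.10, *Vsig4* (0.89) and *Timd4* (0.73) were no longer past 2-fold, and *Marco* was at 2.22.

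The promoter sequences of C1qb and C1qc, which were lower side by side, and of Marco, Timd4 and Vsig4, which were higher, are shown for comparison. They are RefSeq sequences of the build GRCm38.p6, which is mm10, from 250 bases before to 50 bases after the transcript start that the promoter table uses, written 5′ to 3′ on the strand of the gene. Capitals mark GAGGAA or its reverse complement TTCCTC, the purine-rich core bound by PU.1 and related ETS factors, which drive macrophage genes. The windows are chr4:136886151-136886450 for C1qb, chr4:136892865-136893164 for C1qc, chr1:120504975-120505274 for Marco, chr11:46810549-46810848 for Timd4 and chrX:96293389-96293688 for Vsig4. The Timd4 window is on the plus strand and the others are on the minus strand.
C1qb: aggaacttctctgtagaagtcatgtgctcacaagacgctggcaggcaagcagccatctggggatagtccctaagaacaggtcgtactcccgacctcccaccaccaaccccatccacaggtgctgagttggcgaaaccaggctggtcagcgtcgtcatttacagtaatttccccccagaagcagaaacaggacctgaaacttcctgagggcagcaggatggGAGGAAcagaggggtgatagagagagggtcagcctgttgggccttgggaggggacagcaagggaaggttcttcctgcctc
C1qc: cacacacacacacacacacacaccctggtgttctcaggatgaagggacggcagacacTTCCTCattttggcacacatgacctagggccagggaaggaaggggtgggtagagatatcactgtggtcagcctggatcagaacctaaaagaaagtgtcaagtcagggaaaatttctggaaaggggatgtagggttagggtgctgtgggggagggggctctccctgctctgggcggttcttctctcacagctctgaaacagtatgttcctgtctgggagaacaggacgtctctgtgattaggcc
Marco: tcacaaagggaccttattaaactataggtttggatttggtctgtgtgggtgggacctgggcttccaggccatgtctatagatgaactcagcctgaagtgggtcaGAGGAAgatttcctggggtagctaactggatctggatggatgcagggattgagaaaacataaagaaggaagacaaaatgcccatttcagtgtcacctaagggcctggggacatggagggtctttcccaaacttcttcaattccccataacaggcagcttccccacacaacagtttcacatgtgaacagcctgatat
Timd4: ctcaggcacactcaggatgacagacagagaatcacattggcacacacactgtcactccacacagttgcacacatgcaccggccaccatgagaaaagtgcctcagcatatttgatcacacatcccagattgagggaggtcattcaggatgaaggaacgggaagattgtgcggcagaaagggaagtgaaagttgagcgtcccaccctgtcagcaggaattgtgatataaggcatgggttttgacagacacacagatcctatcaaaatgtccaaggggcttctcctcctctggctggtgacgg
Vsig4: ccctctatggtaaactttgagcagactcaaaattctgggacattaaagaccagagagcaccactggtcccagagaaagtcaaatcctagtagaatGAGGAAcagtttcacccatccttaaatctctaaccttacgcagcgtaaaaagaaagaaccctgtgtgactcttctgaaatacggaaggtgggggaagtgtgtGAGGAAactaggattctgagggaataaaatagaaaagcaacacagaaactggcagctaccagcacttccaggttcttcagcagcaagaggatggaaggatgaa

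The core lies at -30 to -25 in C1qb, at -193 to -188 in C1qc, at -146 to -141 in Marco, and at -155 to -150 and -53 to -48 in Vsig4, counted from that transcript start at 1 with no position 0. For C1qc and Timd4 it is the start of the main transcript, which lies inside the outermost start among the listed transcripts. It has no match in the Timd4 window. Of the 10 genes, 7 had a promoter in the table, and 5 of these 7 held the core on either strand, among them Cd5l with TTCCTC at -66 to -61. Of all 32841 promoters of the same length, 28.3% held it. The MAF half-site TGCTGA was in 5 of the 7 (19.5% of all promoters), the nuclear receptor half-site AGGTCA in 3 (16.3%), and the AP-1 site TGANTCA in none (7.81%), each searched on both strands. No match of one motif overlapped a match of another. Genes on both sides of the comparison carried the PU.1 core, namely Cd5l, C1qb and C1qc among the lower genes and Marco and Vsig4 among the higher. The genes with a promoter but without the core were also on both sides, Clec4f among the lower and Timd4 among the higher. These matches describe letters in a window and were not tested as binding sites.

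Levels are given in TPM, which the authors scaled for transcript length and to an equal sum in each library, so that genes can be compared with each other. In the AAV-GFP library the order ran from *Cd5l* (208 TPM) through *C1qb* (171), *C1qa* (168), *C1qc* (160), *Clec4f* (91.3), *Csf1r* (53.5), *Adgre1* (14.8), *Vsig4* (13.7) and *Timd4* (2.64) to *Marco* (2.54). In the AAV-*Wee1-AS* library it ran from *Cd5l* (121 TPM) through *C1qa* (87.9), *C1qb* (83.2), *Clec4f* (80.9), *C1qc* (76.7), *Csf1r* (39.9), *Vsig4* (38.7), *Adgre1* (15.4) and *Marco* (7.70) to *Timd4* (6.54). With 1 library per group, no spread between mice stands beside these levels, so neighbours in either order cannot be told apart beyond counting. The highest and the lowest level were 81.8-fold apart in AAV-GFP and 18.5-fold apart in AAV-*Wee1-AS*. The summed level of the 10 genes was 885 TPM in AAV-GFP and 558 TPM in AAV-*Wee1-AS*. *Cd5l* and the C1q genes together held 79.8% and 66.1% of these sums, and *Marco*, *Timd4* and *Vsig4* held 2.14% and 9.49%. The sum thus follows the abundant secreted proteins far more than these 3 receptors. In whole liver RNA, fewer Kupffer cells and less RNA of a gene per Kupffer cell cannot be told apart.

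**Figure D1:**
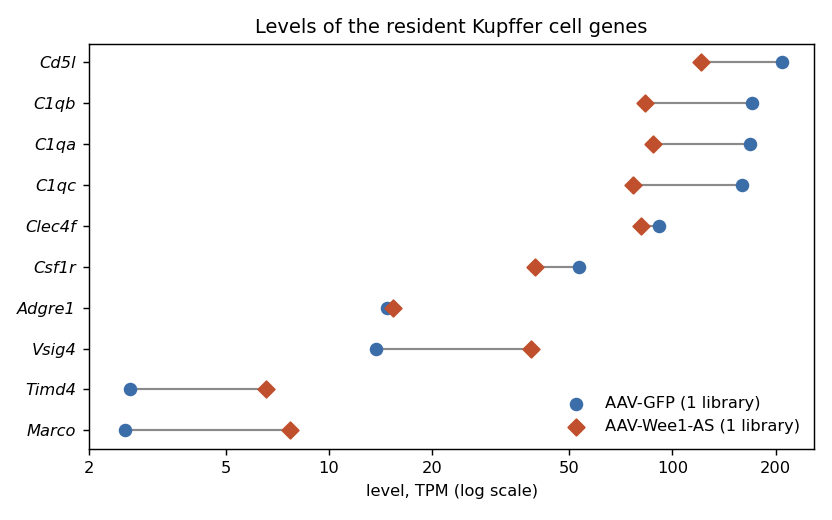
Level of each resident Kupffer cell gene in TPM (log scale), with circles for the AAV-GFP library and diamonds for the AAV-*Wee1-AS* library, 1 library each and no error bars. *Marco*, *Timd4* and *Vsig4* sit low in AAV-GFP and move up, the 3 C1q genes move down together from 160 to 171 TPM to 76.7 to 87.9 TPM, and *Adgre1* (14.8 and 15.4 TPM) and *Clec4f* (91.3 and 80.9 TPM) have the smallest shifts.

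Differences between the libraries were computed from estimated counts, scaled by the TMM method of edgeR. The totals were 55466182 counts in AAV-GFP and 48079335 in AAV-*Wee1-AS*. Each log2 ratio has AAV-*Wee1-AS* over AAV-GFP with a prior count of 2, and the interval behind it is an exact (Clopper-Pearson) 95% interval from the gene's counts in both libraries. These intervals hold no error but that of counting, they treat PCR copies as separate molecules, and they leave out the spread between mice. The reads were paired, and whether the mates of a pair were counted separately is not given in the sources used here. If they were, the intervals are too narrow. Of the 10 genes, 6 were lower and 4 higher, and the share lower among all genes was 50.5%. The median log2 ratio of the 10 was -0.27, and that of all genes was -0.02. The ratio was above 2 for 3 of the 10, against 22.2% of all genes, and below 0.5 for 2, against 8.71%. The counting interval lay wholly below a ratio of 1 for 6 genes and wholly above it for 3, against 38.0% and 39.1% of all genes. With 10 genes, nothing particular to the set is read from these counts.

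The receptors that take up particles were measured first. *Marco* (gene identifier 17167, chr1:120474538-120505024) encodes a class A scavenger receptor with a collagen-like stalk that binds bacteria and other particles. It had 162 counts in AAV-GFP and 414 in AAV-*Wee1-AS*, a log2 ratio of 1.60 (1.35 to 1.89), and stood at percentile 88.6 of all genes. *Vsig4* (278180, chrX:96247201-96293438) encodes CRIg, the complement receptor of Kupffer cells that captures particles coated with C3 fragments. It had 649 and 1550 counts, a log2 ratio of 1.52 (1.39 to 1.65). *Timd4* (276891, chr11:46810786-46844333) encodes TIM-4, a receptor for the phosphatidylserine exposed by dying cells. It had 175 and 388 counts, a log2 ratio of 1.40 (1.15 to 1.68). As measured, the 3 genes were higher to a similar degree: by their raw counts, with no prior count, the log2 ratios of *Marco* and *Timd4* differed by 0.20 (-0.17 to 0.58), those of *Marco* and *Vsig4* by 0.10 (-0.20 to 0.40), and those of *Timd4* and *Vsig4* by -0.11 (-0.40 to 0.19). All of these intervals hold 0, at the low counts that *Marco* and *Timd4* had. With the trends in GC content and transcript length removed, *Marco* was above *Timd4* by 1.48 and above *Vsig4* by 1.33, while *Timd4* and *Vsig4* differed by -0.16.

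*Clec4f* (51811, chr6:83644542-83656116) encodes a C-type lectin that binds galactose-bearing glycans and is restricted to Kupffer cells in mice. It had 7220 counts in AAV-GFP and 5418 in AAV-*Wee1-AS*, a log2 ratio of -0.15 (-0.20 to -0.10), which was -0.27 with upper quartile scaling and 0.22 with the trends in GC content and transcript length removed. The other genes were compared with it because it is restricted to Kupffer cells. Scaling of the libraries cancels in a difference between any 2 genes. Against *Clec4f*, and by raw counts with no prior count, the log2 ratio was higher by 1.77 for *Marco* (95% counting interval 1.50 to 2.04), by 1.67 for *Vsig4* (1.53 to 1.81), by 1.56 for *Timd4* (1.30 to 1.83) and by 0.24 for *Adgre1* (0.13 to 0.36). The differences were -0.25 for *Csf1r* (-0.32 to -0.17), -0.61 for *Cd5l* (-0.67 to -0.54), -0.76 for *C1qa* (-0.84 to -0.68), -0.86 for *C1qb* (-0.95 to -0.78) and -0.88 for *C1qc* (-0.97 to -0.79). As measured, each of the other 9 genes thus differed from *Clec4f* by more than counting error, 4 upward and 5 downward. With the trends in GC content and transcript length removed, 3 were above *Clec4f* and 6 below it. *Adgre1* turned to -0.49, *Vsig4* was then at 0.67, *Timd4* at 0.51 and *Marco* at 2.00, and the 5 lower genes lay between -0.64 (*Cd5l*) and -0.32 (*C1qa*).

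The genes of secreted proteins were on the lower side, by less with the trends removed. *Cd5l* (11801, chr3:87357881-87371074) encodes AIM, a scavenger receptor cysteine-rich protein that macrophages release into plasma and that acts on lipid droplets and on macrophage survival. It had 13953 counts in AAV-GFP and 6876 in AAV-*Wee1-AS*, the most of the 10 genes in both, and its log2 ratio was -0.76 (-0.80 to -0.72), and -0.42 with the trends removed. *C1qa*, *C1qb* and *C1qc* encode the A, B and C chains, which assemble in equal numbers into C1q. *C1qa* (12259, chr4:136895916-136898844) had 5990 and 2654 counts, a log2 ratio of -0.91 (-0.98 to -0.84), and -0.10 with the trends removed. *C1qb* (12260, chr4:136880126-136886200) had 6209 and 2563 counts, a log2 ratio of -1.01 (-1.08 to -0.95), and -0.26 with the trends removed. *C1qc* (12262, chr4:136889801-136892936) had 5591 and 2283 counts, a log2 ratio of -1.03 (-1.10 to -0.96), and -0.27 with the trends removed. The 3 genes are neighbours on the minus strand of chromosome 4, within 18.7 kb.

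The C1q genes kept close to each other in level as well as in ratio. Their levels in TPM spanned a factor of 1.07 in AAV-GFP and 1.15 in AAV-*Wee1-AS*, and their sum went from 499 to 248 TPM. By raw counts, the log2 ratio of *C1qa* was above that of *C1qb* by 0.10 (0.00779 to 0.20) and above that of *C1qc* by 0.12 (0.02 to 0.21), while *C1qb* and *C1qc* differed by 0.02 (-0.08 to 0.11). Both intervals for *C1qa* begin close to 0, so they could hold it if the mates of read pairs were counted separately. *C1qb* and *C1qc* lay just past a ratio of 0.5 and *C1qa* just short of it, and the counting intervals of *C1qb* and *C1qc* both hold a ratio of 0.5.

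As measured, *Clec4f* and the receptors *Csf1r* and *Adgre1* had the smallest differences. *Csf1r* (12978, chr18:61105572-61131139) encodes the tyrosine kinase receptor for CSF1 and IL-34, on which the survival of Kupffer cells depends. It had 6832 and 4315 counts, a log2 ratio of -0.40 (-0.45 to -0.34). With the trend in transcript length alone removed it was -0.79, the lowest of the 10 genes, and with both trends removed it was -0.13. Its locus overlaps *Hmgxb3* on the opposite strand, which had 1114 counts in AAV-GFP and 608 in AAV-*Wee1-AS*, and the libraries keep strand but whether the authors' counting used it is not given in the sources used here. *Adgre1* (13733, chr17:57358581-57483529) encodes F4/80, an adhesion G protein-coupled receptor and the classical surface marker of mouse tissue macrophages. It had 1564 and 1389 counts, a log2 ratio of 0.09 (-0.01 to 0.20), the single gene of the 10 whose interval holds 0, and its log2 ratio was -0.03 when the libraries were scaled by the upper quartile.

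**Figure D2:**
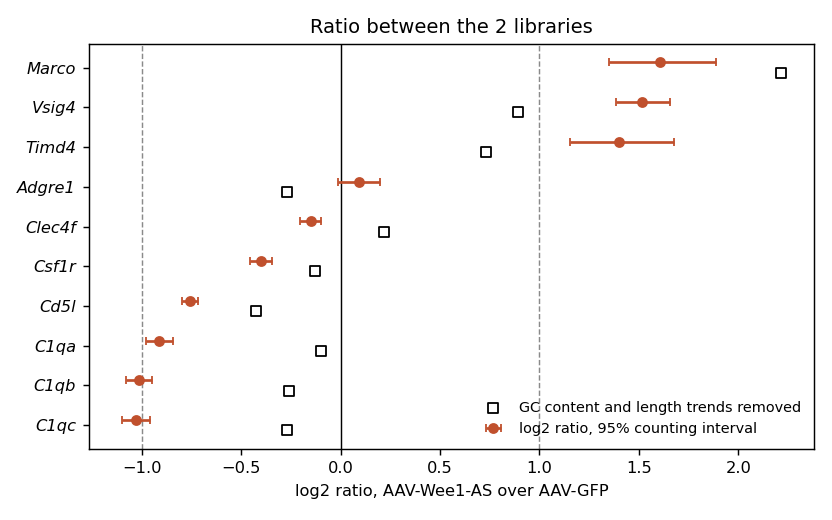
Log2 ratio (AAV-*Wee1-AS* over AAV-GFP) for each gene. Filled circles with bars give the ratio and its exact 95% counting interval, open squares the value with the trends in GC content and transcript length removed, and dashed lines a ratio of 2 and of 0.5. *Marco* (1.60 and 2.22) is the gene past 2-fold by both measures, and the C1q genes are near -1 by the first and between -0.27 and -0.10 by the second.

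Transcripts of the same gene were listed separately for *Timd4*, *Adgre1* and *C1qc*, and their counts are shares that the authors' quantification assigned between overlapping models. The main *Timd4* transcript (NM_178759) held 92.6% of the gene's counts in AAV-GFP and 97.4% in AAV-*Wee1-AS*. For *Adgre1*, the transcript NM_010130 had 1275 and 1292 counts, or 81.5% and 93.0% of the gene, while XM_006523602 had 143 and 16 counts and NM_001355722 had 146 and 81. The count of the main *Adgre1* transcript was thus nearly the same in both libraries before scaling, and the minor models carried the decrease in the gene's raw count. With the libraries scaled, the log2 ratio of this main transcript was 0.31, above the interval of the whole gene (-0.01 to 0.20). NM_007574 held 88.5% and 82.2% of the counts of *C1qc*, and XM_017319927 held 11.5% and 17.8%. The other 7 genes were each listed with 1 transcript.

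Across all genes with a GC value, the log2 ratio fell with GC content (Spearman coefficient -0.67 across 14995 genes, which share the same 2 libraries). The genes were divided into 10 groups of rising GC content, and the median log2 ratio went from 1.43 in the lowest group to -0.69 in the highest. *Vsig4* and *Timd4*, with GC contents of 44.6% and 44.4%, belonged to a group with a median of 0.72. *C1qb* and *C1qc*, at 57.4% and 57.5%, belonged to one with a median of -0.61, and *C1qa*, at 59.5%, to one with a median of -0.69. *Marco* was apart from this pattern: its GC content was 54.5%, its group had a median of -0.50, and its log2 ratio was 1.60. *Csf1r*, in the same group at 54.5%, had -0.40. *Clec4f* (52.1%) and *Cd5l* (51.5%) belonged to groups with medians of -0.33 and -0.12, and *Adgre1* (47.2%) to one with a median of 0.48.

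**Figure D3:**
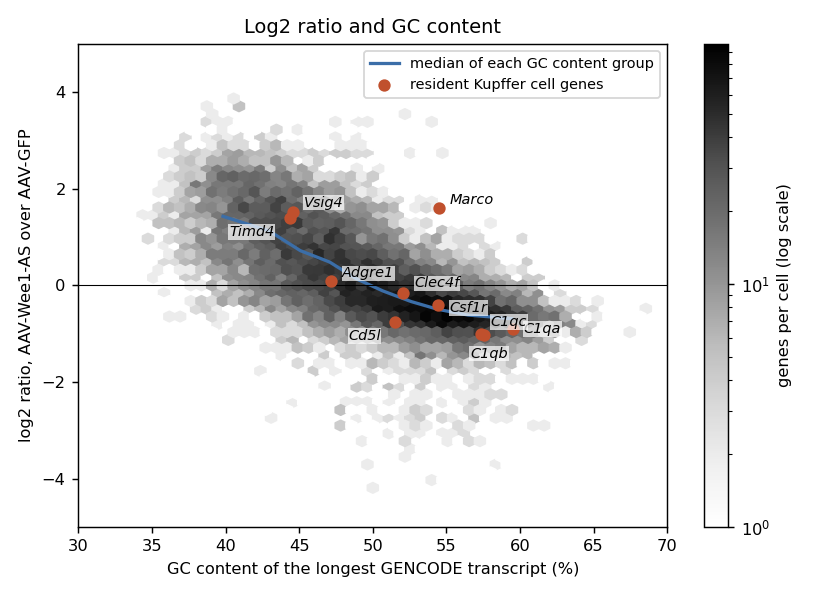
Log2 ratio (AAV-*Wee1-AS* over AAV-GFP) against the GC content (%) of the longest GENCODE transcript, with all genes as grey cells shaded by number (log scale), the median of the 10 GC content groups as a line and the resident Kupffer cell genes as labelled points. The 12 genes outside the axes are not drawn. *Marco*, at 54.5% and 1.60, stands well above the line, *Vsig4* and *Timd4* stand above it, and the C1q genes are below it.

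Lowess curves of the log2 ratio on GC content and on transcript length were then subtracted. The members stayed as far apart (2.64 from lowest to highest, against 2.63), with *Marco* alone at the upper end. The genes other than *Marco* lay closer together. They ran from -1.03 (*C1qc*) to 1.52 (*Vsig4*) as measured, and from -0.42 (*Cd5l*) to 0.89 (*Vsig4*) with the trends removed. *Marco* went to 2.22, percentile 99.1 of all genes with a value, while *Vsig4* went to 0.89 (percentile 90.7) and *Timd4* to 0.73 (87.0). *Clec4f* went to 0.22, on the higher side. The other genes went to -0.10 (*C1qa*), -0.13 (*Csf1r*), -0.26 (*C1qb*), -0.27 (*C1qc*), -0.27 (*Adgre1*) and -0.42 (*Cd5l*). By this measure, 1 of the 10 genes was above 2-fold, against 7.38% of all genes, and none was below 0.5-fold, against 8.54%. The curves at the GC content and length of the C1q genes lay at -0.81 (*C1qa*), -0.76 (*C1qb*) and -0.76 (*C1qc*), close to the ratios of these genes, and at -0.61 for *Marco*, on the other side of 0 from its ratio. *Cd5l* was the lowest of the 10 by this measure and stood at percentile 24.7. Whether the trend with GC content arose in the livers or in making the libraries cannot be told apart with 1 library per group.

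Other genes of Kupffer cells and of their environment were taken from lists. Of 10 other Kupffer cell genes, 5 were higher and 5 lower, with a median log2 ratio of -0.12, and with the trends removed 3 were higher and 7 lower, 2 of them below 0.5-fold (median -0.12). *Cd163*, the receptor for haptoglobin-hemoglobin complexes, had 231 and 1254 counts, a log2 ratio of 2.69 (2.50 to 2.91), and 2.28 with the trends removed, so it shared the direction of *Marco*. *Slc40a1*, the iron exporter ferroportin, had 2756 and 5935 counts, a log2 ratio of 1.37 (1.30 to 1.44) that was 0.16 with the trends removed. *Clec1b*, the C-type lectin CLEC-2, had 342 and 302 counts (0.08, -0.14 to 0.31, and -1.36 with the trends removed), *Folr2*, a folate receptor of tissue macrophages, had 941 and 628 (-0.32, -0.47 to -0.17), and *Cfp*, which encodes the complement factor properdin, had 2393 and 1112 (-0.84, -0.95 to -0.74). With the trends removed, *Folr2* turned to 0.07 and *Cfp* was at -0.12. Of 11 transcription factors of Kupffer cells and macrophages, 6 were higher and 5 lower (median 0.12). With the trends removed, 8 of these factors were higher and 3 lower (median 0.15), from -0.90 for *Irf8* to 0.77 for *Smad4*. *Nr1h3*, which encodes LXRα, had 8704 and 4724 counts, a log2 ratio of -0.62 that was 0.12 with the trends removed, and *Spic*, which is needed for macrophages that recycle red cell iron, had 21 and 55 (1.56, 0.90 to 2.45, and 0.51 with the trends removed). Of 6 CSF1R ligands and signals of the sinusoidal niche, 5 were lower (median -0.35), among them *Csf1* with -0.19 (-0.35 to -0.03) and *Il34* with -0.51 (-0.86 to -0.18), the ligands of *Csf1r*. With the trends removed, 3 of the 6 were lower and 3 higher (median -0.17), and both ligands turned, to 0.16 (*Csf1*) and 0.25 (*Il34*).

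The complement genes that work with C1q and CRIg come mostly from hepatocytes. Of 15 such genes, 10 were lower and 5 higher, with a median log2 ratio of -0.06, and with the trends removed 5 were lower and 10 higher, with a median of 0.05. *C1ra* and *C1s1*, the proteases that bind C1q in the C1 complex, had log2 ratios of -0.06 (-0.09 to -0.03) and 0.37 (0.35 to 0.39), and with the trends removed 0.13 and 0.04. *C4b*, the next component of the classical pathway, had -0.06 (0.16 with the trends removed), and *C3*, whose fragments bind CRIg, had 0.22. None of the 15 was below 0.5-fold, against 8.71% of all genes. As measured, the C1q genes had lower ratios than all of these partners, whose lowest value was -0.63 for *Calr*. With the trends removed this no longer held, since *C3ar1* (-1.37), *Calr* (-0.50) and *Lrp1* (-0.40) were then below the C1q genes. *Hc*, which encodes complement C5, had 16883 and 52123 counts, a log2 ratio of 1.89 (1.86 to 1.92) that was 0.90 with the trends removed. Among 17 relatives of the members by protein family, 14 passed the count filter, 7 of them higher and 7 lower (median -0.02), and with the trends removed 5 higher and 9 lower (median -0.25). *Scara5*, a class A scavenger receptor like *Marco* that takes up ferritin, was the highest of this list, with 101 and 998 counts, a log2 ratio of 3.54 (3.27 to 3.88), and 3.75 with the trends removed. *Clec4a2*, a C-type lectin receptor of myeloid cells, had 145 and 28 counts, a log2 ratio of -2.04 (-2.75 to -1.52), and -3.27 with the trends removed.

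**Figure D4:**
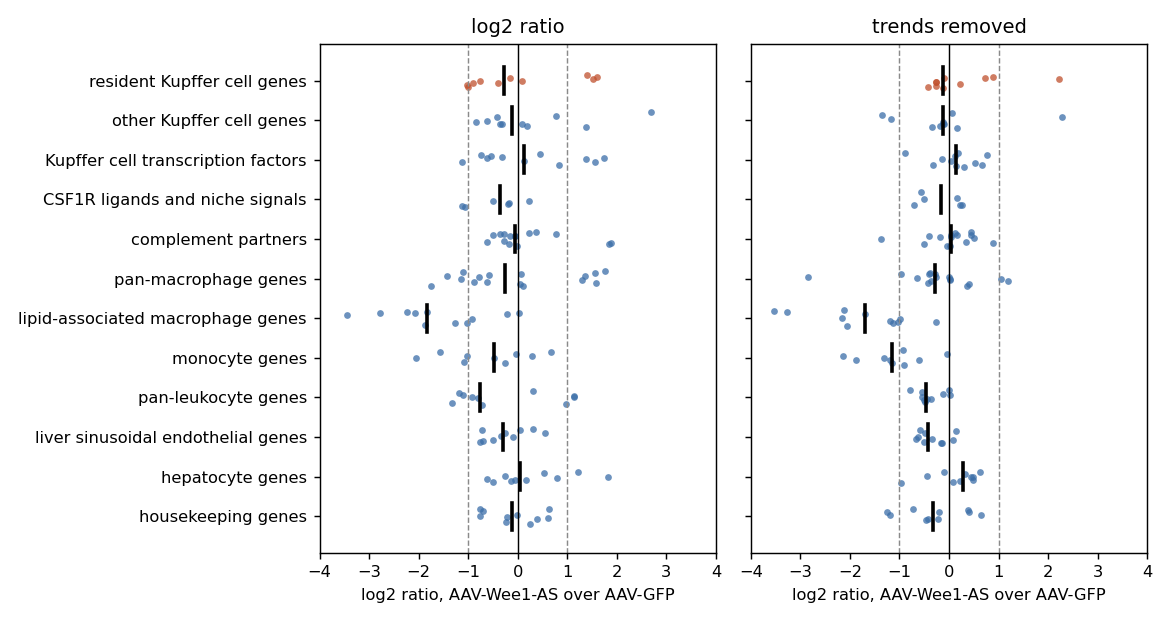
Log2 ratio (AAV-*Wee1-AS* over AAV-GFP) in 12 gene lists, as measured (left) and with the trends in GC content and transcript length removed (right). Each point is a gene, black bars are medians, and dashed lines mark a ratio of 2 and of 0.5. The resident Kupffer cell genes spread from -1.03 to 1.60 around a median of -0.27, whereas the lipid-associated macrophage genes lie almost wholly below 0, with medians of -1.83 and -1.70.

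Markers of other macrophages and cells were measured beside the members, and the part these cells play in the values of *Csf1r*, *Adgre1* and the C1q genes was not tested. The lipid-associated macrophage genes went from a summed 1113 TPM to 550 TPM, with 10 of 11 lower, 8 of them below 0.5-fold, and a median of -1.83 (-1.70 with the trends removed). Most of these sums was *Ctsd*, a lysosomal protease that many cells make, at 917 and 471 TPM, a gene singled out after its values were seen. *Trem2* had 322 and 62 counts (-2.08) and *Gpnmb* had 831 and 62 (-3.44). Of 16 pan-macrophage genes, 8 were lower and 8 higher (median -0.26, 486 and 387 TPM), from -1.43 for *Cd14* to 1.76 for *Mpeg1* among the genes that the naming rule covers. Of 9 monocyte genes, 7 were lower (median -0.48, 34.3 and 20.4 TPM), and with the trends removed all 9 were (median -1.15). Of 10 pan-leukocyte genes, 6 were lower (median -0.76, 200.1 and 131 TPM), and with the trends removed 9 were (median -0.46). Neutrophil genes summed to 16.3 and 8.71 TPM (5 of 7 lower, *Ly6g* at 0 counts in both libraries), dendritic cell genes to 3.27 and 4.58 TPM (2 of 8 lower) and lymphocyte genes to 6.24 and 4.38 TPM (7 of 9 lower). Sinusoidal endothelial genes summed to 267 and 211 TPM, with 7 of 10 lower (median -0.31), and 8 with the trends removed (median -0.42). Stellate cell genes summed to 176 and 145 TPM, with 6 of 10 lower (median -0.59), and 6 with the trends removed (median -0.62). Of the 10 stellate cell genes, 4 were below 0.5-fold (8.71% of all genes) and 2 above 2-fold (22.2%). With the trends removed, 4 were below 0.5-fold (8.54%) and 0 above 2-fold (7.38%). Cholangiocyte genes summed to 12.5 and 12.3 TPM (3 of 5 lower, and 0 of 5 with the trends removed). Hepatocyte genes summed to 74662 and 84191 TPM, with 5 of 10 lower and *Alb* at 37459 and 53289 TPM, as is usual for liver. Of 10 housekeeping genes, 6 were lower (median -0.11), and with the trends removed 7 were (median -0.32), 2 of them below 0.5-fold.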

How the data were processed

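Liver RNA of 2 libraries was measured, 1 per group. The authors deposited 1 table of RefSeq transcripts on mm10 with an estimated count, FPKM and TPM per library, the last 2 scaled by the authors for transcript length and depth. The submitters' processing notes name Trimmomatic 0.38, HISAT2 2.1.0, SAMtools 1.9 and StringTie 2.1.3b. The deposited estimated counts are whole numbers shared out between overlapping transcripts and are not normalized.

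Here, counts, FPKM and TPM were summed by gene symbol. TMM factors (edgeR 4.0.16, R 4.3.3, all genes) were 1.02 (AAV-GFP) and 0.980 (AAV-*Wee1-AS*). GC content was that of the longest GENCODE M21 transcript and was found for 94.6% of genes past the filter. Lowess trends (span 0.3, 5 cycles) were fitted with statsmodels 0.14.6 in Python 3.11.15. The steps were tested on simulated data. Differences between the log2 ratios of 2 genes carry exact conditional intervals. The members and the 17 comparison lists were chosen with earlier results of these data known, and the motifs after the values of the members were seen. Of the lists, the first genes and the highest and lowest gene with at least 100 counts could be named, and any gene of the lists on Kupffer cells, niche signals and complement. Alternatives are given at the end. Paired analysis and tests were not possible with 1 library per group.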

Additional observations from a re-analysis of the deposited data

How the results depend on the processing

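With the trends in GC content and transcript length removed, the median log2 ratio of the 10 genes was -0.11, and *Clec4f* turned to 0.22. By this measure 1 gene was above 2-fold, against 7.38% of all genes, and 0 were below 0.5-fold, against 8.54%. Removal of the length trend alone left 0 below 0.5-fold, against 11.3% of all genes. DESeq2 1.42.0 size factors left 1 below 0.5-fold, against 8.42% of all genes. The most abundant transcript of each gene also left 1, against 12.75%. Upper quartile scaling gave 3 below 0.5-fold (*C1qa* at -1.03), against 11.09%. FPKM gave 2 above 2-fold, against 6.49% of all genes, where the main analysis had 22.2% of all genes. Scaling by the upper quartile moved the median of the members to -0.39 and the median of all genes by -0.12. Under the 12 alternatives, of which the 2 count filters could not change any of the 10 genes, *Marco* ranged from 1.08 to 2.22, *Vsig4* from 0.89 to 1.78 and *Timd4* from 0.73 to 1.54, all higher, while *Cd5l*, *Csf1r* and the C1q genes were lower under all 12, *Clec4f* under 11 and *Adgre1* under 2. The others were library totals, no count filter, a minimum of 50 counts, a prior count of 0.5, FPKM with a pseudocount of 1, and TPM with one of 1 or 0.1. No paired analysis was possible because each group has 1 library, and no library could be left out.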
